A study of Mus musculus with 25 samples.

Results

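The NF-kB subunits and a set of their response genes were described by RNA-seq in 5 murine melanoma lines. The 10 genes were chosen by symbol, out of 55385 genes in the count files, and comprise Nfkb1, Nfkb2, Rela, Relb, Nfkbia, Tnfaip3, Birc3, Traf1, Icam1 and Vcam1. Of these, 9 had enough counts for a test, and Traf1 did not. The choice of the genes used no measured value. It was made with earlier results of these data known.

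NF-kB is a family of dimeric transcription factors built from Rel proteins. In resting cells the dimers are held in the cytoplasm by IkB proteins. TNF, interleukin 1 or bacterial products activate IkB kinases (IKK), IkB is degraded, and the dimers enter the nucleus and bind kB sites at their target genes. A slower branch runs through the kinase NIK and the processing of the Nfkb2 product p100, which releases dimers with Relb. Many targets, such as Nfkbia and Tnfaip3, encode inhibitors of the pathway, so that the response limits itself. In melanoma the pathway is known for its part in survival, adhesion and inflammatory signals. Transcript levels of the subunits do not show where the proteins are in the cell or whether they bind DNA.

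Cells were untreated and harvested at 50% confluency, and each line gave 5 biological replicates. High and intermediate metastatic lines (HIM-melanoma) were WT31, from Tyr::Nras mice with the change Q61K that also lack INK4a, B16F10 luc2, a purchased line that carries luciferase, and RET, from mice with a RET transgene under the metallothionein-I promoter. Low metastatic lines (LM-melanoma) were D4M, whose mice of origin carried Tyr::CreER, BrafCA and Ptenlox/lox, and HCmel12, from a primary melanoma of mice with HGF and CDK4(R24C). Each line stands for a single tumor model, so that the 5 replicates describe the spread between cultures of that line. HIM-melanoma lines grew in the same medium but both LM-melanoma lines in others. The D4M medium held 5% fetal calf serum, less than that of every other line. The HCmel12 medium held beta-mercaptoethanol among other additions. Line and medium thus cannot be told apart.

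Between 24199083 and 25843286 counts per library were assigned to genes. A count of 3, taken as the smallest detectable amount, corresponded to between 0.111 and 0.138 CPM (counts scaled by library size and TMM factor), which covers counting error only. All 25 libraries correlated best with a library of their own line. A gene was called significant in the comparison of 2 lines when its adjusted p in limma's test was under 0.05. The summed level of 12 melanocyte markers lay between 6.67 and 61.5 CPM in D4M and was at least 12434 CPM in every library of the other lines. Gpr143 and Oca2 had at most 3 counts in any D4M library. The 6 fibroblast markers summed to between 451 and 674 CPM in D4M, with 5 genes above 3 counts in every library and Lum at 3 counts or less, and to between 1.24 and 88.6 CPM elsewhere. A pair of libraries stood apart from their line in the melanocyte markers. D4M replicate 1 had 61.5 CPM, in comparison to at most 12.5 CPM in the other D4M libraries, and HCmel12 replicate 4 had 18478 CPM, in comparison to at most 13693 CPM. Whether fewer cells express a gene or each cell holds less of its RNA cannot be told apart in these bulk samples.

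First, levels were compared between the genes per transcript length, on the deposited TPM values (24 libraries). Rela, the main activating subunit, had the highest mean TPM of the 4 subunits in each line, from 46.9 in B16F10 luc2 to 90.1 in WT31. In B16F10 luc2 the libraries of Rela (42.9 to 49.7 TPM) and of Nfkb1 (35.1 to 46.3 TPM) overlapped. Nfkb1, which encodes the precursor p105 of the subunit p50, followed with mean values from 19.5 TPM in HCmel12 to 40.4 TPM in B16F10 luc2. Nfkb2 lay between 13.2 TPM (WT31) and 25.9 TPM (D4M). In HCmel12 the mean TPM of Nfkb2 (20.2) was above that of Nfkb1 (19.5). Relb was the lowest subunit in each line, from 3.48 TPM in RET to 10.1 TPM in HCmel12. Among the response genes, mean values were 7.71 (RET) to 32.1 TPM (WT31) for Nfkbia and 0.269 to 5.12 TPM for Birc3. The mean of Tnfaip3 was at most 0.962 TPM in any line. Vcam1 had a mean of 50.9 TPM in D4M, second only to Rela among the 10 genes there. Its mean was at most 0.0723 TPM in any other line.

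**Figure D1:**
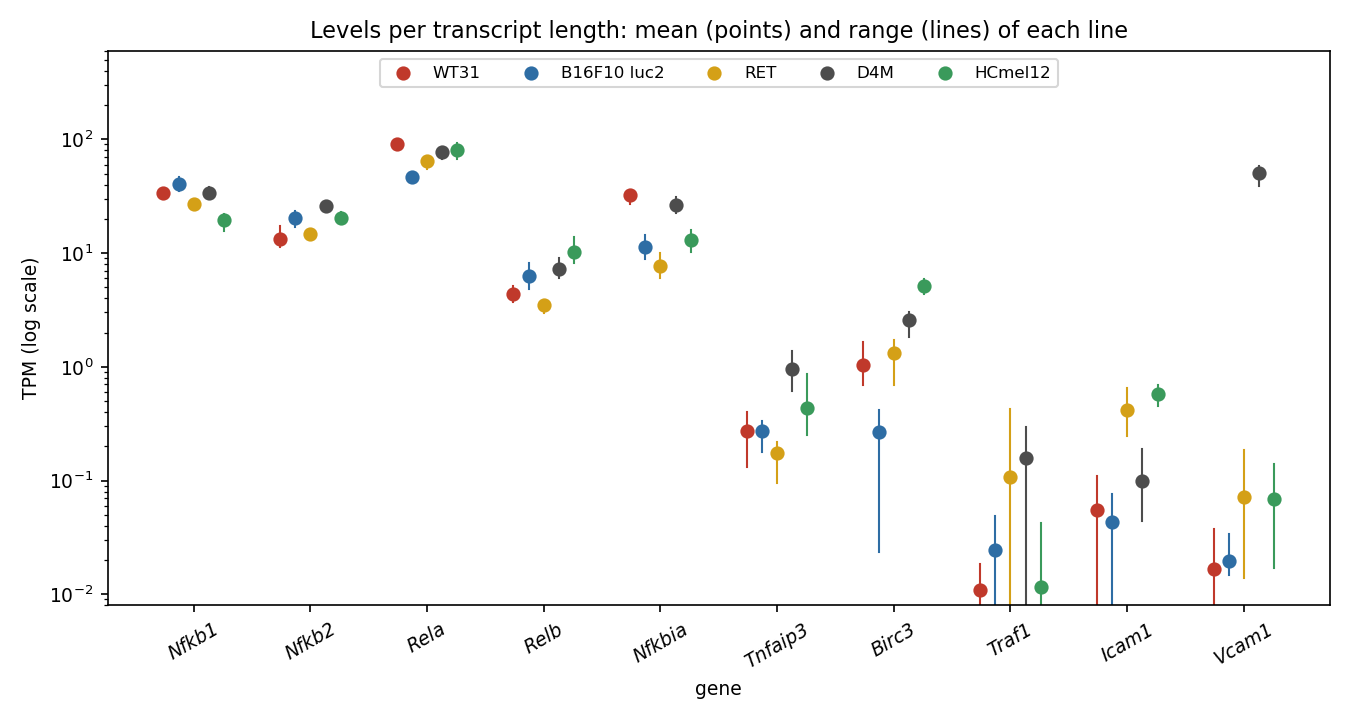
TPM (log axis) of the 10 genes in the 5 lines, with points for the mean and vertical lines for the range over 5 libraries (4 in D4M). A line that runs off the lower edge reaches a library at 0. The means of Nfkb1, Nfkb2 and Rela stay between 13.2 and 90.1 TPM in all lines, while Vcam1 spans from 0.0168 TPM in WT31 to 50.9 TPM in D4M.

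The subunits were then compared between the lines on CPM. Nfkb1 (ENSMUSG00000028163.17, GRCm38 chr3:135584655-135691547, minus strand) had 89.6 ± 8.01 CPM in B16F10 luc2 and 80.7 ± 6.21 CPM in D4M (mean ± SD, n = 5). The order went on with WT31 (66.6 ± 5.04), RET (59.0 ± 1.39) and HCmel12 (43.6 ± 5.13 CPM). HCmel12 was lower than every other line, and its libraries, from 35.3 to 48.6 CPM, did not overlap with those of any other line. In limma's test its log2 fold change from D4M was 0.89 ± 0.077 (SE, D4M minus HCmel12, adjusted p = 6.22e-11). B16F10 luc2 and D4M at the top of the order were not distinguishable with the TMM scaling (log2 fold change 0.15, 95% interval -0.0015 to 0.30, adjusted p = 0.066 in limma's test). With library size only, the same difference in Nfkb1 was 0.30 with an adjusted p of 0.000492 in limma's test, and that between WT31 and D4M was lost (from -0.28 to -0.053, adjusted p = 0.522).

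Rela (ENSMUSG00000024927.8, chr19:5637483-5648130, plus strand) had 101 ± 9.35 CPM in D4M, 94.8 ± 3.94 in WT31 and 90.9 ± 7.79 in HCmel12. RET followed with 76.4 ± 4.12 CPM and B16F10 luc2 with 55.4 ± 4.22 CPM. No library of B16F10 luc2 exceeded 60.5 CPM, and no library of another line was under 69.4 CPM. B16F10 luc2 was 1.83-fold lower than D4M (log2 fold change -0.87 ± 0.068, adjusted p = 7.68e-12) and 1.64-fold lower than HCmel12 (adjusted p = 6.49e-10 in limma's test). D4M and WT31 did not pass the test for Rela (log2 fold change -0.09, WT31 minus D4M, adjusted p = 0.206), and this difference turned to 0.13 with library size only. The difference between D4M and HCmel12 passed with 0.16 (adjusted p = 0.0374 in limma's test) but was lost in 5 of 25 fits with 1 library left out, among them that without HCmel12 replicate 4 (0.11, adjusted p = 0.109), and turned to -0.022 with library size only.

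Nfkb2 (ENSMUSG00000025225.15, chr19:46304320-46312385, plus strand), the precursor p100 of the subunit p52, was highest in D4M with 59.8 ± 3.17 CPM. Its D4M libraries had 60.0, 60.9, 63.5, 54.8 and 59.7 CPM, above the highest library of any other line (49.3 CPM). HCmel12 (43.1 ± 3.84 CPM) and B16F10 luc2 (42.3 ± 5.56 CPM) differed by less than their spread (95% interval of the log2 fold change -0.21 to 0.14, adjusted p = 0.763 in limma's test). RET had 30.8 ± 1.52 CPM and WT31 25.5 ± 3.93 CPM. D4M was thus 1.39-fold above HCmel12 (adjusted p = 1.41e-05) and 2.36-fold above WT31 (adjusted p = 1.64e-12 in limma's test). Exons of AC114539.1 and Psd overlap Nfkb2 on the opposite strand. Other genes share 16.3% of its 31-base sequences, AC114539.1 more than any other, so that some of its counts are uncertain.

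Relb (ENSMUSG00000002983.17, chr7:19606217-19629438, minus strand), the partner of p52 in the NIK branch, was highest in HCmel12 with 20.6 CPM in replicate 4 and between 11.6 and 13.7 CPM in the other 4 libraries. D4M had 10.6, 13.9, 10.7, 9.95 and 9.37 CPM, and B16F10 luc2 had 9.61, 7.38, 10.4, 11.8 and 6.57 CPM. The values of these 3 lines overlapped. WT31 (4.71 to 6.13 CPM) and RET (4.22 to 5.32 CPM) lay below all of them. HCmel12 was 2.62-fold above WT31 (adjusted p = 2.63e-08) and 2.85-fold above RET (adjusted p = 1.08e-08 in limma's test). Relb differed between D4M and HCmel12 by -0.40 (adjusted p = 0.0143), which was not kept without HCmel12 replicate 4 (-0.26, adjusted p = 0.0699) or D4M replicate 5 (-0.34, adjusted p = 0.0508). Without HCmel12 replicate 4, B16F10 luc2 came to differ from D4M (-0.29, adjusted p = 0.0436, in comparison to -0.27 and 0.109 in limma's test with all libraries).

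**Figure D2:**
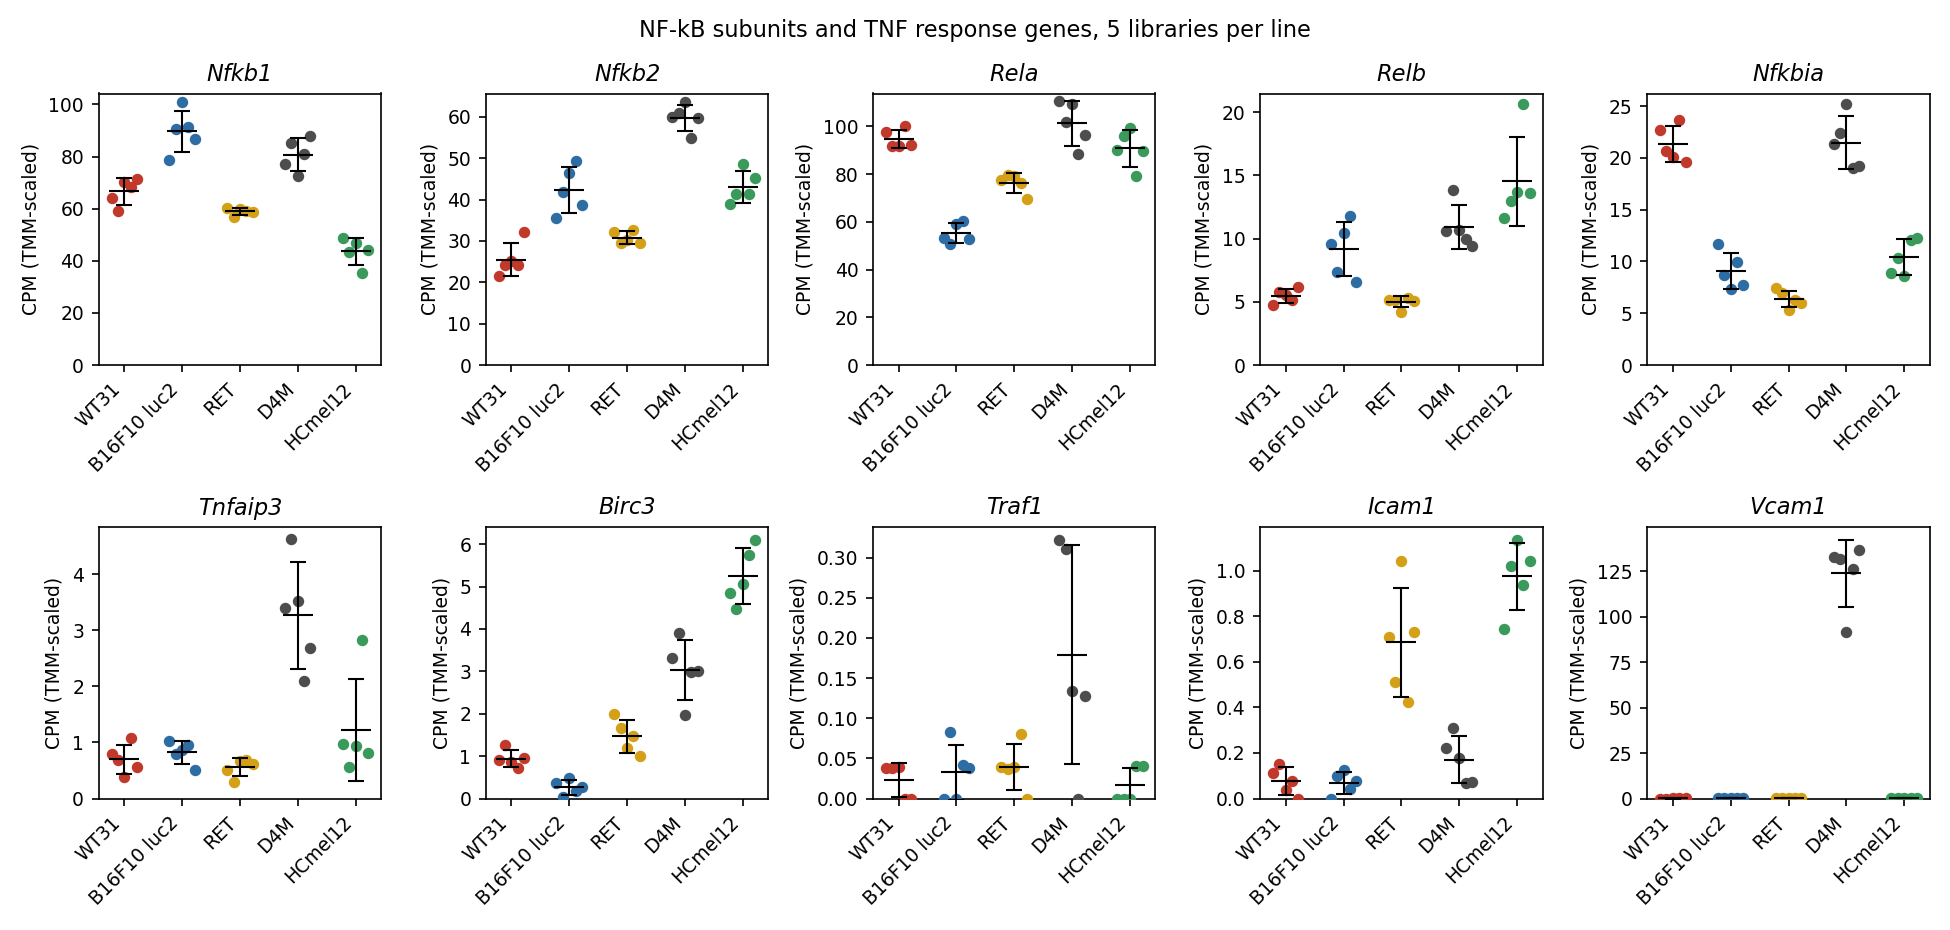
CPM with TMM scaling of each of the 10 genes in single libraries (points, 5 per line), with the mean and SD per line as horizontal lines. Each panel has its own axis from 0. Vcam1 reaches 91.7 to 137 CPM in D4M and stays under 0.435 CPM in every other library, whereas the libraries of the lines overlap in part for the subunits.

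The inhibitors Nfkbia and Tnfaip3 and the subunit gene Nfkb2 are textbook targets of NF-kB, and their promoter sequences are shown because matches to the kB consensus were found close to their starts. Promoter windows from 250 bases before to 50 bases after the start were taken from RefSeq (GRCm38.p6) for 7 of the 10 genes, in 10 windows. Nfkb1, Relb and Vcam1 were not among them. The kB consensus, a motif of 10 bases, was searched on both strands, with overlapping matches counted, and was found in 8.46% of 32851 windows of all genes. It was found for 3 of the 7 genes (Nfkb2, Nfkbia and Tnfaip3), whereas 9.55% of 27025 genes had a match. The 130 bases before the start, read 5′ to 3′ on the strand of the gene with matches in capitals, are given for Nfkbia (chr12:55492648-55492777, minus strand) and the first start of Tnfaip3 (chr10:19015411-19015540, minus strand). Of all windows, 3.94% held a match in this stretch. For Nfkb2, only short stretches around the matches at its first start are given (chr19:46304690-46304716 and chr19:46304718-46304736, plus strand).
Nfkbia: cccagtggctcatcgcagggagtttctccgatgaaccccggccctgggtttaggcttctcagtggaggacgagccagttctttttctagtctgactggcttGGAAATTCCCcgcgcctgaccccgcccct
Tnfaip3: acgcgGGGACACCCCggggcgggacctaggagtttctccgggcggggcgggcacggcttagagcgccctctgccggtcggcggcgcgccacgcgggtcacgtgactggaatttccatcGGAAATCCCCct
Nfkb2, upstream stretch: atcgtcacGGGAATTCCCCccctcggg
Nfkb2, stretch at the start: ggccgaaaGGGGCTTTCCc
The match of Nfkbia lay at -29 to -20 relative to the start. Those of Tnfaip3 lay at -125 to -116 and at -12 to -3, and the capitals of the upstream Nfkb2 stretch cover 2 overlapping matches at -39 to -30 and -38 to -29. No match was found in the windows of Rela, Birc3, Traf1 and Icam1, which says only that these letters are not in these windows.

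**Figure D3:**
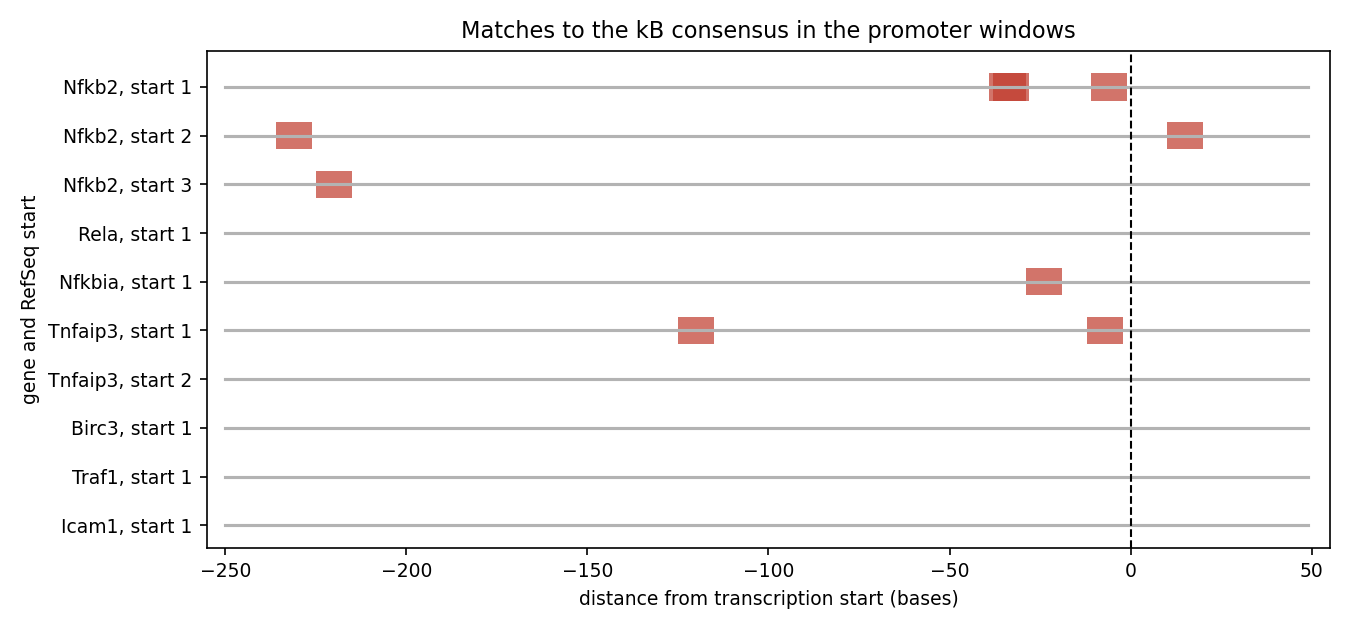
Position of kB consensus matches (red boxes, on either strand) in the 10 promoter windows of 7 genes, with the distance from the start in bases on the x axis and 1 row per gene and RefSeq start. Matches appear for Nfkb2, Nfkbia and the first start of Tnfaip3. Darker red marks overlapping matches.

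Nfkbia (ENSMUSG00000021025.8, chr12:55489410-55492647, minus strand) encodes IkB-alpha, which retains NF-kB in the cytoplasm. D4M had 21.3, 22.4, 25.2, 19.1 and 19.3 CPM and WT31 had 22.7, 20.7, 20.1, 23.6 and 19.6 CPM. The values of these lines lay over each other and above every library of the other lines. HCmel12 had 8.87, 10.3, 8.64, 12.1 and 12.2 CPM, B16F10 luc2 11.7, 8.67, 7.34, 9.95 and 7.73 CPM, and RET 7.39, 6.92, 5.32, 6.29 and 5.94 CPM. D4M was 2.07-fold above HCmel12 (log2 fold change 1.05 ± 0.12, adjusted p = 7.3e-09), and WT31 was 2.06-fold above HCmel12 (adjusted p = 7.24e-09 in limma's test). The lowest line was RET, 3.36-fold below D4M (adjusted p = 2.87e-12) and 1.41-fold below B16F10 luc2 (adjusted p = 0.0056 in limma's test). D4M and WT31 were not distinguishable with TMM scaling (log2 fold change -0.0034, 95% interval -0.21 to 0.20), but WT31 was 0.22 higher with library size only (adjusted p = 0.0443 in limma's test). A high Nfkbia level was thus found in a line of LM- and in a line of HIM-melanoma.

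Tnfaip3 (ENSMUSG00000019850.11, chr10:19000910-19015657, minus strand) encodes A20, a ubiquitin-editing enzyme that ends TNF signaling. In counts, D4M had 74, 104, 79, 47 and 63 per library. WT31 had 10 to 28 counts, B16F10 luc2 13 to 26 and RET 8 to 17. No library of HIM-melanoma reached the lowest D4M library. HCmel12 had 24, 14, 23 and 20 counts in replicates 1, 2, 3 and 5 but 70 counts in replicate 4, which lay within the range of D4M. On CPM, D4M had 3.26 ± 0.955, HCmel12 1.22 ± 0.913, B16F10 luc2 0.827 ± 0.204, WT31 0.70 ± 0.26 and RET 0.556 ± 0.159 (n = 5 each). D4M was 3.02-fold above HCmel12 (adjusted p = 3.2e-05), 3.86-fold above B16F10 luc2 (adjusted p = 3.49e-06), 4.65-fold above WT31 (adjusted p = 7.92e-07) and 5.75-fold above RET (adjusted p = 1.95e-07 in limma's test). The other 4 lines did not differ between neighbours in this order. Tnfaip3 in RET was below HCmel12 by -0.93 on the log2 scale (adjusted p = 0.0335 in limma's test), and without HCmel12 replicate 4 this was -0.57 with an adjusted p of 0.142. The same difference in Tnfaip3 was also lost without RET replicate 1 (adjusted p = 0.0558) or RET replicate 2 (adjusted p = 0.109 in limma's test).

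Birc3 (ENSMUSG00000032000.17, chr9:7848699-7873186, minus strand) encodes cIAP2, a ubiquitin ligase that binds TRAF proteins and protects from cell death upon TNF. HCmel12 had 4.86, 4.46, 5.07, 5.74 and 6.10 CPM and D4M had 3.31, 3.91, 1.96, 2.98 and 3.00 CPM. RET had 1.98, 1.67, 1.18, 1.48 and 1.00 CPM, WT31 0.911, 1.25, 0.854, 0.731 and 0.961 CPM, and B16F10 luc2 0.357, 0.0415, 0.495, 0.167 and 0.270 CPM. The order was HCmel12, D4M, RET, WT31 and B16F10 luc2, and only RET and WT31 among the neighbours did not differ (adjusted p = 0.0634 in limma's test). All libraries of LM-melanoma lay above those of WT31 and B16F10 luc2, while the lowest D4M library (1.96 CPM) lay just below the highest RET library (1.98 CPM). Birc3 was the only 1 of the 9 tested genes that was significantly lower in every line of HIM-melanoma than in both lines of LM-melanoma. The 6 log2 fold changes lay between -4.50 ± 0.35 (B16F10 luc2 minus HCmel12, adjusted p = 1.08e-11) and -1.05 ± 0.25 (RET minus D4M, adjusted p = 0.000443 in limma's test). Over all 15247 tested genes, 6.4% were lower in this way and 12.9% were regulated in one direction in all 6 comparisons (996 genes higher and 976 lower in HIM-melanoma, or 1274 and 760 with library size only). Since B16F10 luc2 had between 1 and 12 counts, its ratio was also taken from summed counts. HCmel12 exceeded B16F10 luc2 19.7-fold (exact 95% interval 13.9 to 28.8, counting error only), and D4M exceeded it 11.4-fold (7.93 to 16.8). Of the 31-base sequences of Birc3, 11.6% occur in other transcripts, and Gm7019 shares more of them than any other gene.

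Birc3 remained significant with one direction in all 6 comparisons when each of the 25 libraries was left out in turn, and under each other scaling, filter and test that was tried. With each line as a single unit (3 against 2 line means), no member passed. The log2 fold change of Birc3 was then -2.54 with an unadjusted p of 0.0509 and an adjusted p of 0.624 in limma's test. By this test 0 of all genes had an adjusted p under 0.05 and 1225 had an unadjusted p under 0.05. Relb joined Birc3 when either B16F10 luc2 replicate 4 or HCmel12 replicate 4 was left out.

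Traf1 (ENSMUSG00000026875.14, chr2:34941750-34961772, minus strand), a TNF receptor adaptor and a known NF-kB target, was near the limit of detection. D4M had 7, 7, 3, 0 and 3 counts, and no library of another line had more than 2. Over all libraries of a line, D4M had 20 counts, RET 5, B16F10 luc2 4, WT31 3 and HCmel12 2. The ratio of D4M to RET was 4.56 (exact 95% interval 1.66 to 15.5), and that to HCmel12 was 11.0 (2.67 to 97.1), or 17.6 with HCmel12 replicate 4 or HCmel12 replicate 5 left out. These intervals cover counting error only, and Traf1 was not tested between the lines.

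The adhesion genes Icam1 and Vcam1 encode ligands of leukocyte integrins that TNF induces in endothelial and other cells. Icam1 (ENSMUSG00000037405.8, chr9:21015985-21028817, plus strand) was low in all lines. HCmel12 had 18.6, 25.6, 28, 23.2 and 25.7 counts and RET had 18, 13.8, 26.5, 10.6 and 19 counts. D4M had 4.87, 7, 4, 1.58 and 1.71 counts, and no library of WT31 or B16F10 luc2 had more than 4. HCmel12 and RET were thus above the other 3 lines in every library. Icam1 did not differ between HCmel12 and RET in limma's test (0.976 ± 0.148 and 0.686 ± 0.24 CPM, adjusted p = 0.148). RET exceeded D4M 4.06-fold in summed counts (exact 95% interval 2.45 to 7.07) and HCmel12 exceeded D4M 5.79-fold (3.55 to 9.94). HCmel12 exceeded WT31 12.8-fold (6.74 to 27.4) and B16F10 luc2 15.1-fold (7.42 to 35.8). The difference of Icam1 between B16F10 luc2 and D4M rested on 8 and 19 counts in all. It passed with an adjusted p of 0.0483 in limma's test, was lost in 16 of 25 fits with 1 library left out (adjusted p = 0.0936 without D4M replicate 1 and 0.0503 without HCmel12 replicate 4 in limma's test), and had an adjusted p of 0.0812 with library size only. An antisense gene, Gm47079, overlaps Icam1, and 14.8% of the 31-base sequences of Icam1 occur elsewhere.

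Vcam1 (ENSMUSG00000027962.14, chr3:116109949-116129688, minus strand) was high in D4M and at or near the limit of detection in the other lines. Its D4M libraries had 2893, 2961, 2059, 2849 and 3210 counts, or 124 ± 18.4 CPM. RET had 2, 5, 11, 1 and 3 counts, and no library of HCmel12, B16F10 luc2 or WT31 had more than 3.01. In summed counts, D4M exceeded RET 724-fold (exact 95% interval 478 to 1156), HCmel12 1398-fold (781 to 2801), B16F10 luc2 2559-fold (1175 to 6973) and WT31 2718-fold (1248 to 7407), counting error only. Leaving out single libraries, which was chosen after seeing the data, moved the ratio to RET to 1162-fold without RET replicate 3, which held 11 of the 22 counts, and that to WT31 to 4370-fold without WT31 replicate 3. The range of the line means was 11.34 on the log2 scale, and 1.26% of all tested genes had a range at least as large, whereas the median range over all genes was 1.41. The remaining lines had few counts per library, at most 11 (RET replicate 3), and were not ordered by limma's test with 1 exception. WT31 was below RET (6 and 22 counts in all, adjusted p = 0.0357 in limma's test), which was lost in 4 of 25 fits with 1 library left out. Gm43109 is annotated antisense to Vcam1.

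Since Vcam1 is known from endothelial cells, fibroblasts and macrophages, markers of these cells were read beside it. The 7 endothelial markers summed to between 1.11 and 1.83 CPM in D4M, in comparison to between 26.1 and 39.7 CPM in HCmel12, where Vcam1 had at most 3.01 counts per library. The sum in HCmel12 was almost entirely Kdr, a receptor of vascular endothelial growth factor (25.3 to 38.9 CPM per library), with Cdh5, Emcn and Erg at 3 counts or less, and Emcn and Erg had at most 3 counts in D4M. Cdh5 had 2 to 7 and Tek 0 to 5 counts per D4M library. Sele, the endothelial selectin gene, is not among these 7 markers and had counts in D4M alone, as given below. Pecam1 was higher in D4M (0.79 ± 0.182 CPM) than in HCmel12 (log2 fold change 2.77, adjusted p = 4.07e-07), WT31 and RET, and lower than in B16F10 luc2 (1.27 to 1.74 CPM, adjusted p = 0.00268 in limma's test). Vwf, the remaining endothelial marker, was lower in D4M (mean 0.266 CPM) than in B16F10 luc2 (1.37 CPM, adjusted p = 1.4e-06) and RET (1.37 CPM, adjusted p = 1.2e-06 in limma's test). It did not differ between D4M and WT31 (adjusted p = 0.894) or HCmel12 (adjusted p = 0.0624 in limma's test). The 8 leukocyte markers summed to between 3.79 and 16.7 CPM in D4M and to between 2.34 and 12.3 CPM in the other lines, with Ptprc and Cd3e at 3 counts or less in every library. Among them the macrophage marker Cd68 was higher in D4M (3.15 to 15.9 CPM per library) than in each other line, as in HCmel12 (1.93 to 3.34 CPM, log2 fold change 1.19, adjusted p = 0.00172 in limma's test), with overlapping libraries. Csf1r, the macrophage growth factor receptor, had 9.45 to 16.1 counts in D4M and at most 6.05 elsewhere, and Adgre1 had at most 3 counts in any D4M library. Itgam had 0 to 4 counts in D4M and at most 3 in any other library. Other transcripts share 68.3% of the 31-base sequences of Itgam and 32.8% of those of Lyz2, so that counts of both genes are uncertain. Lyz2 of the same markers was lower in D4M, with at most 1 count per library, than in each other line, where its mean was between 0.533 CPM in HCmel12 and 8.13 CPM in WT31. The fibroblast markers were highest and the melanocyte markers lowest in D4M, as given above. Their part in the level of Vcam1, and of the other genes that were highest in D4M, was not tested. Without D4M replicate 1, whose Vcam1 level (133 CPM) was within that of the other D4M libraries, the log2 fold changes of Vcam1 between D4M and every other line were kept.

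Next, the members were counted in each comparison, beside the share of all 15247 genes that was significant in the same comparison. In relation to D4M, 6 of 9 tested members were significant in WT31 (76.1% of all genes), 7 in B16F10 luc2 (77.7%) and 9 in RET (77.1%). None was higher than in D4M in WT31 (37.5% of all genes) or B16F10 luc2 (38.8%), and Icam1 alone was higher in RET (38.8%). Lower than in D4M were 6 members in WT31 (38.6% of all genes were lower), 7 members in B16F10 luc2 (38.9%) and 8 members in RET (38.3%). The median log2 fold change of the tested members was -1.18, -1.23 and -1.05 in these comparisons, whereas that of all genes lay between -0.0095 and 0.0052. D4M was the highest of the 5 lines, significant against each of the other 4, for 3 members (Nfkb2, Tnfaip3 and Vcam1), in comparison to 20% of all genes. WT31 (13.8% of all genes), B16F10 luc2 (8.81%) and RET (7.07%) were highest in this way for no member. HCmel12 was lowest against each other line for Nfkb1 (6.85% of all genes), WT31 for Nfkb2 (11.1%), B16F10 luc2 for Rela and Birc3 (6.83%) and RET for Nfkbia (5.06%). No member differed in all 10 pairs of lines, as 7.19% of all genes did. With library size only, the median of all genes shifted to between 0.15 and 0.22 in the comparisons with D4M, and the median of members has to be read against this shift.

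With HCmel12 as the reference, 6 of 9 members were significant in WT31 (70.4% of all genes), 5 in B16F10 luc2 (69.1%) and 7 in RET (67.2%). Nfkb1 was higher in all 3 lines of HIM-melanoma than in HCmel12, with log2 fold changes of 0.61, 1.04 and 0.44, while it was lower in WT31 and RET than in D4M (-0.28 and -0.45). Members higher than in HCmel12 numbered 2 in WT31 (36.1% of all genes), 1 in B16F10 luc2 (35.3%) and 1 in RET (34% of all genes). Lower than in HCmel12 were 4 members in WT31 (34.3%), 4 members in B16F10 luc2 (33.8%) and 6 members in RET (33.3%). Relb and Birc3 were lower in all 3 lines, and HCmel12 was the highest of the 5 lines for both (9.56% of all genes), for Relb only with both HCmel12 replicate 4 and D4M replicate 5 included. D4M and HCmel12 themselves differed in all 9 members (72.5% of all genes), with Nfkb1, Nfkb2, Rela, Nfkbia, Tnfaip3 and Vcam1 higher in D4M (36.8%) and Relb, Birc3 and Icam1 higher in HCmel12 (35.7%), while Rela turned with library size only. Without HCmel12 replicate 4, 7 members differed between D4M and HCmel12, and Rela (adjusted p = 0.109) and Relb (adjusted p = 0.0699 in limma's test) no longer passed. Rela did not pass without D4M replicate 1 (adjusted p = 0.0859), D4M replicate 3 (0.0794), HCmel12 replicate 1 (0.0635) or HCmel12 replicate 5 (0.0667) either, nor Relb without D4M replicate 5 (0.0508 in limma's test).

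Within HIM-melanoma, 6 members differed between WT31 and B16F10 luc2 (72.8% of all genes), 6 between WT31 and RET (73.2%) and 7 between B16F10 luc2 and RET (51.5%). WT31 had more Rela (1.71-fold), Nfkbia (2.38-fold) and Birc3 (3.54-fold in summed counts) than B16F10 luc2 (36.4% of all genes were higher and 36.4% lower), and less Nfkb1, Nfkb2 and Relb. WT31 had more Nfkb1, Rela and Nfkbia than RET (36.8% of all genes were higher), and less Nfkb2, Icam1 and Vcam1 (36.4% were lower). The difference in Nfkb1 was small (log2 fold change 0.17, adjusted p = 0.0407 in limma's test), with overlapping libraries, and was lost in 8 of 25 fits with 1 library left out. B16F10 luc2 had more Nfkb1, Nfkb2, Relb and Nfkbia than RET (25.2%), and less Rela, Birc3 and Icam1 (26.2%). The direction thus differed between the subunits in each of these pairs. Comparisons that share a line share its libraries and are not independent of each other.

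**Figure D4:**
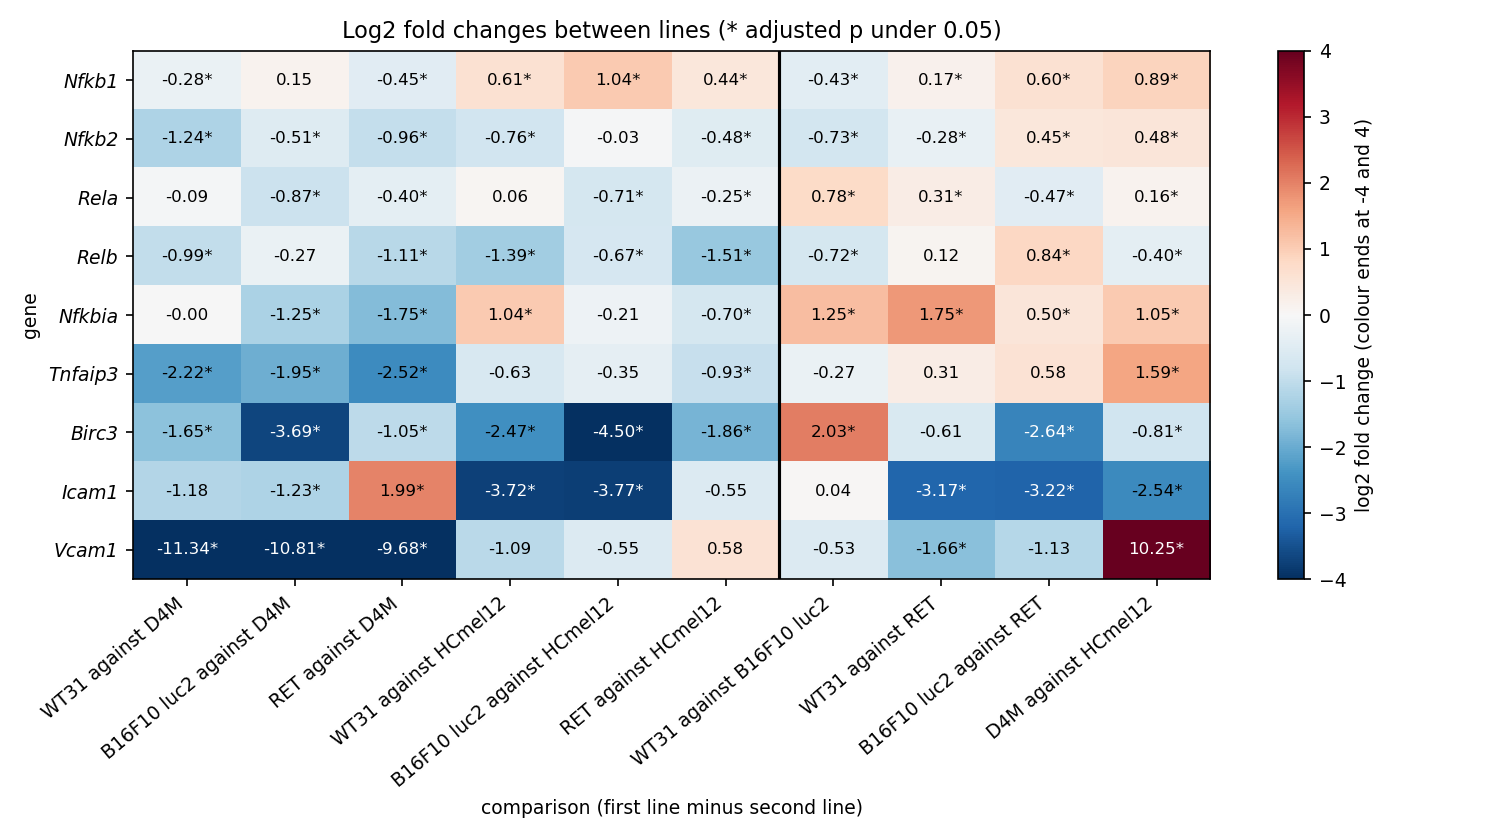
Log2 fold changes of the 9 tested genes in the 10 pairs of lines (first minus second line), with * for an adjusted p under 0.05 in limma's test. The vertical line separates the 6 comparisons of HIM- with LM-melanoma from those within a group, and colours end at -4 and 4. Birc3 is the only row with a significant negative value in all 6 columns to the left. Rela (WT31 or HCmel12 with D4M) and Nfkbia (WT31 with D4M) turn sign with library size only, and values of Vcam1 and Icam1 rest on few counts in some lines.

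The other genes of the pathway were taken from 6 lists. Among 8 further Rel and IkB genes, 7 were tested, of which Nfkbiz was significantly lower and Nfkbib significantly higher in every line of HIM-melanoma than in both of LM-melanoma, beside 6.4% and 6.53% of all genes. Nfkbiz encodes IkB-zeta, a nuclear cofactor of NF-kB, and its log2 fold changes lay between -2.68 and -1.04. Nfkbib, the gene of IkB-beta, had log2 fold changes between 0.20 and 1.13, and in the smallest, WT31 minus HCmel12 (adjusted p = 0.0267 in limma's test), the libraries overlapped. Nfkbib lost this comparison without WT31 replicate 4 (adjusted p = 0.0717), WT31 replicate 5 (0.0584), HCmel12 replicate 1 (0.074) or HCmel12 replicate 4 (0.0937 in limma's test). Other genes, Ccer2 most, share 14% of the 31-base sequences of Nfkbib. Bcl3, a nuclear IkB protein that works with p50 and p52, had at most 0.038 CPM in a WT31 library and was lower in WT31 than in D4M (log2 fold change -6.03, adjusted p = 1.24e-10 in limma's test). It did not differ between B16F10 luc2 and D4M (-0.15, adjusted p = 0.63 in limma's test). Rel, which encodes c-Rel of lymphoid cells, was higher in WT31 (14.3 ± 1.39 CPM) than in every other line. Nfkbie passed in 1, Nkrf in 3 and Nfkbil1 in 4 of the 10 pairs, and their largest log2 fold change was 0.51. Nfkbid, a nuclear IkB gene that was not tested, had 10 to 18 counts in each D4M library and at most 3 in any other.

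None of the 7 kinase genes was regulated in one direction in all 6 comparisons, beside 12.9% of all genes. Map3k14, the gene of NIK, was highest in D4M with 10.2 ± 2.33 CPM and lowest in WT31 with 1.99 ± 0.342 CPM. Its log2 fold change between D4M and HCmel12 was 1.22 (adjusted p = 1.18e-07 in limma's test). The catalytic subunit gene Ikbkb was lowest in D4M (36.1 ± 0.662 CPM) and highest in WT31 (81.9 ± 6.58 CPM), and the regulatory subunit gene Ikbkg, for NEMO, was highest in D4M (51.2 ± 4.47 CPM). The related kinase genes Ikbke and Tbk1 were lowest in D4M, and Ikbke reached 16.5 ± 2.03 CPM in B16F10 luc2. Chuk, for IKK-alpha, and Map3k7, for the upstream kinase TAK1, had mean levels of 36.3 to 49.7 CPM and 94.2 to 121 CPM.

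Of 21 receptors, 19 were tested and 2 were lower in all 6 comparisons (6.4% of all genes). These were the TNF receptor genes Tnfrsf1a and Tnfrsf1b. Tnfrsf1a, whose receptor carries the death domain, had 136 ± 14.2 CPM in D4M and 126 ± 12.3 in HCmel12, in comparison to 94.9 ± 4.51 in RET, 86.3 ± 6.29 in WT31 and 66.3 ± 4.94 CPM in B16F10 luc2. No library of HIM-melanoma reached the lowest of LM-melanoma (98.1 and 111.3 CPM). Tnfrsf1b, the other TNF receptor, was found at 45.8 ± 4.06 CPM in D4M. HCmel12 had 10.5 ± 2.75 CPM, with at most 0.729 CPM in every library of HIM-melanoma, with log2 fold changes between -8.78 and -4.16. D4M was the highest of the 5 lines for 9 of the 19 receptors, in comparison to 20% of all genes. Il1r1, the interleukin 1 receptor, had 42.5 ± 7.79 CPM in D4M and at most 0.385 CPM in a library of another line. Tnfrsf19 was highest in WT31 (662 ± 66.2 CPM) and at or near 0 in D4M. Tnfrsf21, a death receptor, was not counted in B16F10 luc2 and was at least 340.4-fold higher in HCmel12 (floor of 3 counts per library). Eda2r had 41.4 ± 4.22 CPM in D4M, 29.0 ± 1.42 in RET and 22 ± 6.60 in WT31, and at most 0.0829 CPM in a library of B16F10 luc2 or HCmel12.

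Of 14 ligands only 4 passed the filter. Tnf itself had at most 3 counts in any library, as had Lta, Ltb and Il1a, and Il1b was not counted. Tnfsf12, which encodes the ligand TWEAK, was lower in all 6 comparisons, with 14.8 ± 2.35 CPM in D4M, 6.36 ± 1.17 in HCmel12 and between 1.30 and 3.46 CPM on average in HIM-melanoma. However, 47.4% of its 31-base sequences also occur in other transcripts, of Tnfsfm13 more than of any other gene, and its counts are uncertain. Il33, an interleukin 1 family member, had 220.5 ± 55.1 CPM in WT31 and 173 ± 57.8 in D4M and at most 6 CPM in any library of the other lines. Il18 was low in all lines, at no more than 2.25 CPM in a library. Tnfsf9, the ligand of 4-1BB, was lowest in WT31 (3.11 ± 0.294 CPM). Its mean was highest in D4M (10.3 ± 2.34 CPM), where it did not differ from B16F10 luc2 (9.41 ± 1.31 CPM, adjusted p = 0.449 in limma's test). Other genes, Gm11110 most, share 12.9% of the 31-base sequences of Tnfsf9.

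All 22 adaptors and ubiquitin enzymes were tested, and 5 were higher and 2 lower in all 6 comparisons, beside 6.53% and 6.4% of all genes. With 1 library left out, 5 to 7 of them remained, without Traf5 when WT31 replicate 4 or HCmel12 replicate 5 was left out and without Traf2 when RET replicate 1, RET replicate 4 or HCmel12 replicate 5 was left out. Traf2 was also lost with DESeq2 size factors, in DESeq2, with no filter and with only the 2 lines fitted, Myd88 with each setting on TPM and Traf5 with log2(TPM + 0.1). Higher were Traf6, which links interleukin 1 and Toll-like receptors to TAK1 (log2 fold changes 0.46 to 1.38), Rbck1, a part of the linear ubiquitin ligase (0.29 to 0.87), and Tradd, Traf2 and Sharpin, which were named after their values were seen. Lower were Traf5 (-5.87 to -0.53) and Myd88, the adaptor of interleukin 1 and Toll-like receptors (-1.47 to -0.34). Traf5 had 26.2 ± 2.54 CPM in D4M and no more than 2.82 CPM in a library of another line. Other genes, Gm26879 most, share 11.4% of the 31-base sequences of Traf5. D4M was the lowest line for 7 of the 22 genes (15.7% of all genes). Tnip1, the partner of A20, was highest in B16F10 luc2 (81.7 ± 8.97 CPM) and lowest in D4M (14.2 ± 0.254 CPM). Irak4, a kinase downstream of Myd88, was also lowest in D4M (7.71 ± 0.853 CPM). Traf3, which restrains NIK, was highest in B16F10 luc2 (83.3 ± 4.57 CPM). Tax1bp1, a further partner of A20, had 299.9 ± 10.1 CPM in B16F10 luc2 and 286.9 ± 11.8 in RET, and at most 168 CPM in a library of the other lines.

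Among 42 other targets of NF-kB and TNF, 26 were tested. None was higher and 4 were lower in all 6 comparisons, beside 6.53% and 6.4% of all genes. These were the cytokine genes Lif and Csf1, the transcription factor gene Irf1 and the inflammatory caspase gene Casp4. Csf1, the macrophage growth factor, had 199 ± 31.6 CPM in D4M and 41.3 ± 8.39 in HCmel12, in comparison to 26.4 ± 5.11 CPM in RET, 16.4 ± 2.14 in B16F10 luc2 and 13.5 ± 1.04 in WT31. Lif had 8.22 ± 0.761 CPM in D4M and 4.03 ± 2.24 in HCmel12, whose lowest library (1.25 CPM) overlapped with HIM-melanoma (at most 1.54 CPM). Irf1 and Casp4 were higher in HCmel12 (22.4 ± 2.39 and 5.81 ± 1.27 CPM) than in D4M (16.6 ± 3.05 and 1.55 ± 0.351 CPM). D4M was the highest of the 5 lines for 16 of the 26 targets, in comparison to 20% of all genes, and HCmel12 was highest for 4 (9.56% of all genes).

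The 4 other targets with the widest range between lines were high in D4M alone. Mmp3, which encodes stromelysin 1, had 197 ± 22.2 CPM in D4M and 0 counts in WT31, RET and HCmel12, so that D4M was at least 1618-fold higher than each of these lines. Other genes, Mmp10 most, share 14.6% of the 31-base sequences of Mmp3. Ptgs2, the gene of cyclooxygenase 2, had 193 ± 102 CPM in D4M, from 117 to 369 CPM in single libraries, and at most 0.366 CPM elsewhere. Plau, for urokinase, reached 1337 ± 338 CPM in D4M and at most 2.89 CPM in a library of another line. Ccl2, a monocyte chemokine, had 42.6 ± 4.37 CPM in D4M and at most 0.0791 CPM elsewhere. Sele, the endothelial selectin gene, singled out after its values were seen, had 39.7 ± 4.59 CPM in D4M and 0 counts in all other libraries. Cxcl10, an interferon-inducible chemokine named after its values were seen, was lower in D4M (6.30 ± 1.23 CPM) than in HCmel12 (42.1 ± 11.1 CPM, adjusted p = 1.95e-09) and RET (43.8 ± 6.23 CPM, adjusted p = 7.65e-10 in limma's test).

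**Figure D5:**
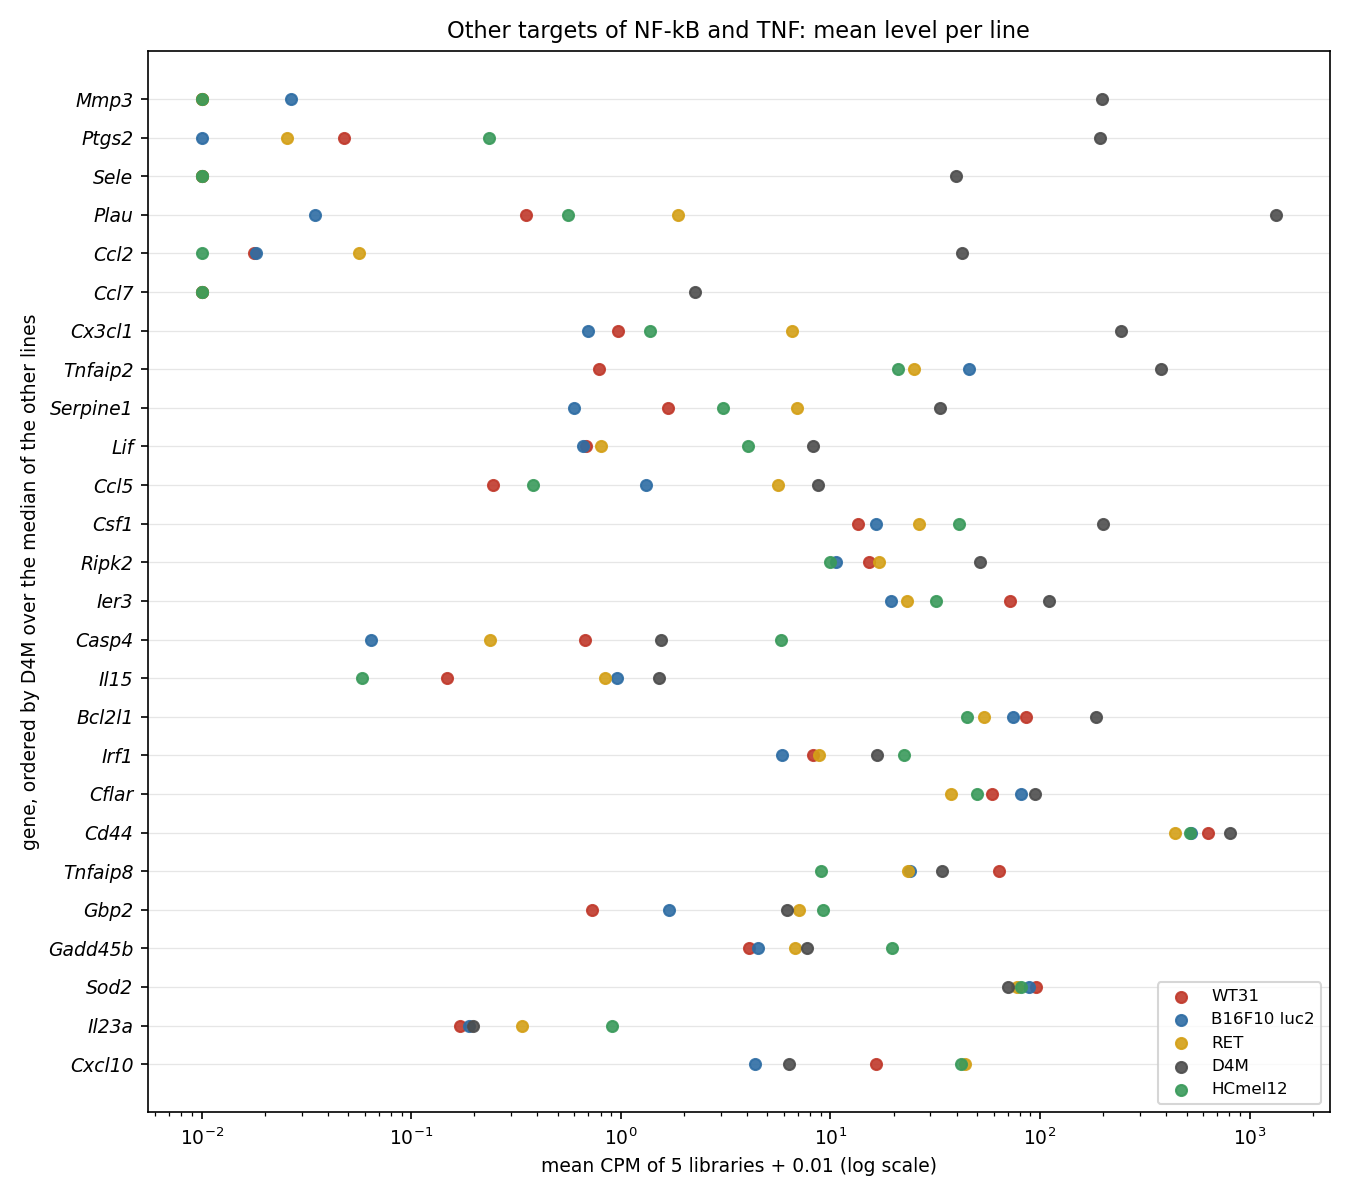
Mean CPM of 5 libraries (log axis, 0.01 added) of the 26 tested targets in each line, ordered by the level in D4M over the median of the other lines. A point at the left edge is a line without counts. D4M is the line to the far right for most genes, including Mmp3, Ptgs2, Sele, Plau and Ccl2, while Cxcl10 at the bottom is higher in RET and HCmel12.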

How the data were processed

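Libraries were made from 5 cultures of each of 5 lines. Per the labels, the authors trimmed reads with Trim Galore 0.6.4 and pseudoaligned them with kallisto 0.4.6 to GRCm38.p6. The methods of the paper name another version of kallisto. Estimated counts and TPM per gene were deposited. The annotation release and strand setting are not given in the sources used here, so reads of a gene and its antisense partner cannot be told apart. Some of the estimated counts were not whole numbers. TPM of D4M replicate 1 were not used here.

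Here, gene IDs were matched to symbols and positions in GENCODE annotation of GRCm38 (55144 of 55385 IDs). Estimated counts were tested with voom and limma 3.58.1 in R 4.3.3, with TMM factors, filterByExpr by line, a mean per line over all 25 libraries and Benjamini-Hochberg adjustment over 15247 genes. Reads shared between genes split by the estimation are uncertain. edgeR 4.0.16 and DESeq2 1.42.0 on rounded counts, other scalings and filters, log2(TPM + 1) and log2(TPM + 0.1), a replicate block, line means and leaving out libraries were alternatives. The fits were tested on simulated data. Ratios of summed counts have exact 95% intervals, and these intervals and the floor of 3 counts per library cover counting error only.

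The members and lists were chosen with earlier results of these data known. Named were all members and all Rel, IkB and kinase genes. In each other list, up to 4 genes regulated in one direction in all 6 comparisons with the largest mean change were named, with up to 4 further genes of the widest range between lines. For each member, the 2 genes outside the lists with the highest correlation were named, except that 1 such gene is not reported here.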

Additional observations from a re-analysis of the deposited data

Results flagged for a closer look

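In 5 of 50 groups of 5 libraries, a single library lay far from the others of its line by Dixon's test (gap over range above 0.71), which chance gives in about 1 of 20 groups. Relb in RET replicate 3 had 4.22 CPM (107 counts), in comparison to between 5.09 and 5.32 CPM in the other RET libraries. Relb in HCmel12 replicate 4 had 20.6 CPM, while the others had between 11.6 and 13.7 CPM. Tnfaip3 in the same library had 2.83 CPM (70 counts), in comparison to between 0.558 and 0.963 CPM. This library also had the lowest Nfkb1 (35.3 CPM) and Rela (79.1 CPM) of its line, and its melanocyte markers were the highest of the line. Vcam1 in D4M replicate 3 had 91.7 CPM (2059 counts) and between 127 and 137 CPM in the other D4M libraries. Vcam1 in B16F10 luc2 replicate 3 had 0.0825 CPM, which is 2 counts, and between 0.0384 and 0.0457 CPM in the others.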

How the results depend on the processing

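Apart from leaving out a library, 954 of the values kept their direction and side of the threshold, 53 lost and 15 gained significance, and 19 turned sign. Of the 53 losses, 33 came from requiring a log2 fold change of at least 1, which can only remove calls. With library size only, Rela between WT31 and D4M turned to 0.13 and between D4M and HCmel12 to -0.022, and Nfkbia between WT31 and D4M to 0.22. Nfkbia in that pair was 0.010 with only the 2 lines fitted. With log2(TPM + 1), with or without a filter of 1 TPM, Nfkb2 between B16F10 luc2 and HCmel12 was 0.013, Rela 0.21 and -0.052 in the same pairs and Nfkbia 0.29, and Tnfaip3 between WT31 and B16F10 luc2 was 0.00097 without the filter. With log2(TPM + 0.1), these were 0.014 for Nfkb2, 0.21 and -0.053 for Rela and 0.30 for Nfkbia, and Vcam1 between RET and HCmel12 was -0.0079. The cause was not tested.

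With a log2 fold change of at least 1 required, the significant members numbered 4 (WT31 against D4M), 5 (B16F10 luc2 against D4M), 6 (RET against D4M), 4 (WT31 against HCmel12), 3 (B16F10 luc2 against HCmel12), 2 (RET against HCmel12), 2 (WT31 against B16F10 luc2), 3 (WT31 against RET), 2 (B16F10 luc2 against RET) and 4 (D4M against HCmel12). All genes passed this limit in 36.7%, 39.8%, 39.2%, 30%, 28.1%, 26.6%, 31.4%, 31.2%, 14.3% and 35.4%, in the same order. Genes regulated in one direction in all 6 comparisons were then 1 in the Rel and IkB list, 1 among receptors, 0 among ligands, 0 among adaptors and 2 among targets. The Rel and IkB list had 1 with no filter, with only the 2 lines fitted and without D4M replicate 1 and HCmel12 replicate 4 together. Ligands had 3 with no filter. Targets had 5 with no filter, where Cxcl2 joined. They also had 5 in DESeq2, with the replicate block, with log2(TPM + 0.1) and without D4M replicate 2, where Ptgs2 joined. With no filter, 909 of all 34125 genes were higher and 997 lower in all 6 comparisons. With only the 2 lines fitted, these were 859 and 868 genes. Members in WT31 against RET numbered 3 with the filter of 1 TPM, which left out Tnfaip3 and Icam1. With this filter, between 6209 and 9640 of 12953 genes were significant per comparison. With line means as units, 0 members were regulated in this way. Over all genes, between 2175 and 6069 per comparison passed with the fold limit, in comparison to between 7845 and 11854 without it. Those regulated in one direction in all 6 comparisons were then 255 higher and 375 lower, and 1269 and 617 with log2(TPM + 1).

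With 1 library left out, log2 fold changes ranged from -0.42 to 0.56 for Icam1 (WT31 against B16F10 luc2), from -0.051 to 0.047 for Nfkbia (WT31 against D4M) and from -0.092 to 0.025 for Nfkb2 (B16F10 luc2 against HCmel12). Members regulated in one direction in all 6 comparisons numbered 1 to 2, and Rel and IkB genes 1 to 2 (1 without WT31 replicate 4, WT31 replicate 5, HCmel12 replicate 1 or HCmel12 replicate 4). Vcam1 between WT31 and RET was lost without WT31 replicate 1 or 2 or RET replicate 2 or 3.

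Libraries of the same replicate number in different lines were not more alike over all genes. The correlation of their deviations averaged -0.0035, in comparison to 0.00089 for different numbers, and exceeded 0.1 in 1 of 50 pairs. The labels do not say whether a number is a shared day or batch. A batch that acts on few genes would not show in this correlation. With the replicate block, Nfkbia between WT31 and D4M was 0.0021, Nfkb1 between WT31 and RET had an adjusted p of 0.0504, and Icam1 between WT31 and D4M (0.0373) and Vcam1 between B16F10 luc2 and RET (0.0417) passed in limma's test. Depth limits Traf1, Icam1 and, outside D4M, Vcam1, which had few counts per library.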

Other observations

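Among genes outside the lists, those whose log2 CPM ran most closely with each member over the 25 libraries were read as a description, since libraries of a line are not independent. Nfkbia ran with Nfe2l2, the gene of the antioxidant regulator NRF2 (r = 0.963), and with the prion protein gene Prnp (0.955). Tnfaip3 ran with Vegfa (0.903) and Cacna1h (0.903), and Vcam1 with Siglec15 (0.983) and Adamtsl3 (0.982). Nfkb2 ran with Slc16a13 (0.961) and with Hyou1, a chaperone gene of the endoplasmic reticulum (0.951). Nfkb1 ran with Nrbp1 (0.941) and Lpin2 (0.927), Rela with Mtcl1 (0.953) and Nsmf (0.949), and Relb with Sft2d1 (0.939) and Nyap1 (0.938). Birc3 ran with Tspan2 (0.929) and Pcdhac2 (0.924), and Icam1 with Neurl2 (0.868).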
